A study of Mus musculus with 6 samples.

Results

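The metallothionein and zinc transporter genes described here, called members, are Mt1, Mt2, Mt3, Mtf1, Slc39a5, Slc39a14, Slc39a4, Slc30a1 and Slc30a10. They were chosen by gene symbol, and all 9 were measured. They are 9 of the 16887 named genes and have 11 of the 20865 probes with a value. The choice was made with their log ratios on these same arrays known, so those ratios are given as a description and carry no test. Each of 6 arrays compared the liver RNA of 1 C57BL/6 mouse, labelled in 1 colour, with a pool in the other colour, and each group had 2 mice. All 6 mice had the HFC diet for 12 days, the diet that the sample names call high fat, and were 7 weeks old. The series' design doses its HFC-fed mice by mouth once daily, beginning on day 5, with lovastatin at 30 mg/kg, fenofibrate at 100 mg/kg or vehicle. The pool, the same on every array, was liver RNA of 6 mice on chow, which the design gives vehicle. The mice dosed with vehicle on the diet are called HFC mice here. The 2 lovastatin samples are named lovastatin in their titles and sources, while their treatment text names fenofibrate, and the titles were followed.

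Metallothioneins are small cysteine-rich proteins that bind zinc and copper, and in liver they form a store of exchangeable zinc. Their genes are switched on by MTF1, a transcription factor that senses free zinc and binds short metal response elements in promoters. Glucocorticoids, inflammation and fasting also raise liver metallothionein. Zinc moves into the cytosol through the ZIP family, encoded by Slc39a genes, and out of it through the ZnT family, encoded by Slc30a genes. Lovastatin blocks the rate-limiting enzyme of cholesterol synthesis, and fenofibrate activates the nuclear receptor PPARα.

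The promoters of Mt1, Mt2 and Slc30a1 are shown because MTF1 is known to act on all of these genes, and because the metallothionein pair and the exporter had unlike ratios on the arrays. Each line is the 250 bases before the RefSeq transcription start in GRCm38.p6, read 5′ to 3′ on the + strand, which is the strand of each gene. Mt1 is at chr8:94178839-94179088, Mt2 at chr8:94172368-94172617 and Slc30a1 at chr1:191906531-191906780. Capitals mark matches to the metal response element core, searched as TGCACNC or TGCGCNC and, for the other strand, GNGTGCA or GNGCGCA.
Mt1: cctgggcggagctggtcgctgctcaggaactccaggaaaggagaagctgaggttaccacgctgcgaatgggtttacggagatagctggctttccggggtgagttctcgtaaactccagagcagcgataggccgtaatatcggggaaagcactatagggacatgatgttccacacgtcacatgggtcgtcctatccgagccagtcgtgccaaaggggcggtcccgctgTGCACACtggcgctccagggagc
Mt2: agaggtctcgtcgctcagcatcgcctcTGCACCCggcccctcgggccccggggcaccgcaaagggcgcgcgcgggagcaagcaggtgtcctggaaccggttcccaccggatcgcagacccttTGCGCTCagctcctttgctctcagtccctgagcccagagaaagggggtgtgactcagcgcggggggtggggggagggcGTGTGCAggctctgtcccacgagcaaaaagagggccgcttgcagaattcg
Slc30a1: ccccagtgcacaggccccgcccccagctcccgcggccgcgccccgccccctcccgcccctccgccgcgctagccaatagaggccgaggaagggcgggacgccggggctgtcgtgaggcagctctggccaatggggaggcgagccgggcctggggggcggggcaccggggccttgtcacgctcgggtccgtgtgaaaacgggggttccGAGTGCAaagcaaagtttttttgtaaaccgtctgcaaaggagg
The search covered 300 bases, which adds the 50 bases after the start. Mt1 had 3 matches, 1 before the RefSeq start and 2 after it. The RefSeq starts were not checked against measured starts, so a match after the start may lie upstream of another start. Mt2 had 4, of which 3 lay before the start. Slc30a1 had 2, with 1 before the start. Among all 32851 promoters of the RefSeq table, 1.97% held at least 3 matches, 0.517% at least 4 and 7.11% at least 2. Promoters were found for 7 of the 9 members. Slc30a10 had 3 matches, 2 of which overlap, Mt3 had 1, Mtf1 had 0, and the 2 Slc39a5 windows had 1 and 0. A match is a run of letters and not a shown binding site.

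Values are log ratios of a mouse over the chow pool, taken as log2. No label states that direction, and it is likely because the mouse is entered in the labels before the pool. The mouse carried Cy5 on the lovastatin and HFC arrays and Cy3 on the fenofibrate arrays, so a fenofibrate difference and a gene-specific dye effect cannot be told apart. Lovastatin and HFC mice share a dye. Of the 8 column blocks on the array of HFC replicate 2, 4 hold values displaced along the row. They touch 50.4% of the probes and 5 of the 11 member probes, namely Slc39a5, Slc39a4, Slc30a10, Slc39a14 probe 1 and Slc30a1 probe 1. These values were treated as missing, and where a value for that array is given for such a probe it is the one found after the block was rotated back. The Mt1, Mt2, Mt3, Mtf1, Slc39a14 probe 2 and Slc30a1 probe 2 spots lie outside the displaced blocks. The spread of log ratios was widest on the array of lovastatin replicate 1, with an SD of 1.1, and lay between 0.419 and 0.574 on the other arrays. Replicate arrays correlated over all probes with r of 0.186 for lovastatin, 0.39 for fenofibrate and 0.239 for HFC. Arrays of unlike groups correlated between 0.0523 and 0.497. The highest, HFC replicate 1 with lovastatin replicate 2, was above every replicate pair. As read, the fenofibrate arrays correlated positively with every array of the other groups. These values ran from 0.0523 with lovastatin replicate 1 to 0.308 with HFC replicate 1, and turning the fenofibrate sign would make them negative. A repeated control spot was at 4.83 and 4.95 on the fenofibrate arrays and negative on all the others, so its sign followed the dye of the mouse.

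Mt1 and Mt2, the metallothioneins that liver makes in quantity, lay far below the pool in the mice given either drug and on both sides of it in the HFC mice. The Mt1 log2 ratio was -2.28 and -2.91 in the lovastatin mice, -1.27 and -1.43 in the fenofibrate mice, and -0.05 and 1.08 in the HFC mice. All 4 drug arrays were below both HFC arrays, and the lovastatin pair was below the fenofibrate pair. The Mt2 log2 ratio was -2.57 and -4.20 in the lovastatin mice, -1.75 and -2.72 in the fenofibrate mice, and -1.04 and 1.56 in the HFC mice. Again all 4 drug arrays were below both HFC arrays, but the lovastatin and fenofibrate pairs overlapped. On the array of lovastatin replicate 2, Mt2 was the probe ranked 2 and Mt1 the probe ranked 15 from the lowest of 20826. On the wider array of lovastatin replicate 1 they ranked 276 and 459 from the lowest of 20300.

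The group mean of Mt1 was -2.60 ± 0.45 in lovastatin mice, -1.35 ± 0.11 in fenofibrate mice and 0.52 ± 0.80 in HFC mice (SD, n = 2 each), which are 0.166, 0.392 and 1.43 times the pool. The group mean of Mt2 was -3.39 ± 1.15 in lovastatin mice, -2.24 ± 0.69 in fenofibrate mice and 0.26 ± 1.84 in HFC mice (SD, n = 2 each), which are 0.0957, 0.212 and 1.20 times the pool. The SD of the HFC pair was thus the widest of the groups for both genes. The 2 HFC mice differed by 1.13 log2 units for Mt1 and by 2.60 for Mt2. In HFC replicate 1 Mt2 ranked 290 from the lowest of 20820 probes, whereas in HFC replicate 2 it ranked 122 from the highest of the 10345 probes used. In bulk liver RNA, fewer cells of a type and less RNA per cell cannot be told apart.

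Set against HFC mice, the Mt1 ratio was lower by 3.11 log2 units in lovastatin mice, a difference of -3.11 (SE 0.46), or 0.116 times the HFC level. In fenofibrate mice the Mt1 difference from HFC mice was -1.86 (SE 0.46), or 0.275 times. The Mt2 difference from HFC mice was -3.65 (SE 1.01) with lovastatin and -2.50 (SE 1.01) with fenofibrate, or 0.0799 and 0.177 times. The HFC pair sets much of this size. Without HFC replicate 1 the Mt2 difference was -4.95 with lovastatin and -3.79 with fenofibrate, and without HFC replicate 2 it was -2.35 with lovastatin and -1.20 with fenofibrate. Both drug comparisons share the HFC arrays. Mt1 and Mt2 are closely related copies and the probe sequences were not used here, so whether the 2 probes share signal was not tested.

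**Figure D1:**
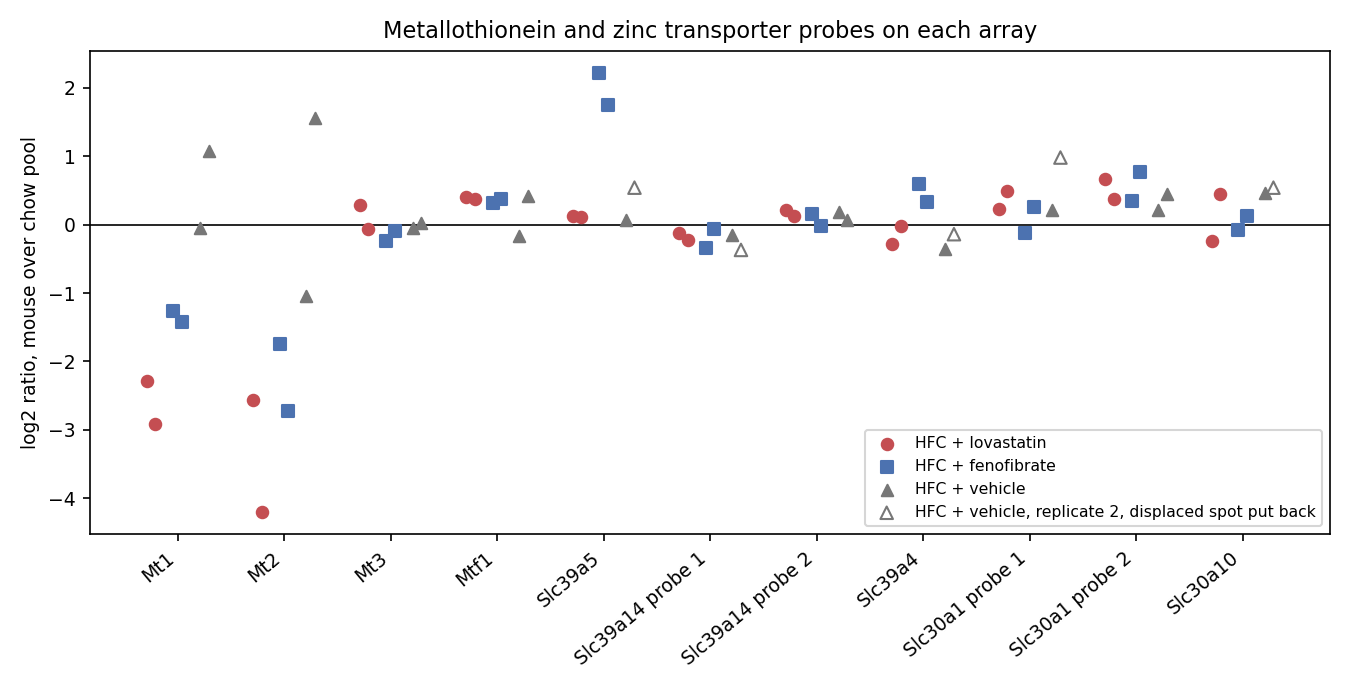
Log2 ratio of mouse over chow pool (vertical axis) for each of the 11 member probes (horizontal axis), 1 point per array, with open points for displaced spots of HFC replicate 2 put back. Mt1 and Mt2 lie between -4.20 and -1.27 on the 4 drug arrays, and Slc39a5 stands at 2.22 and 1.75 on the fenofibrate arrays.

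Mt3, the metallothionein known mainly from brain, stayed near the pool. Its log2 ratio was 0.28 and -0.06 in lovastatin mice, -0.24 and -0.10 in fenofibrate mice, and -0.05 and 0.03 in HFC mice. Mt4, a metallothionein on the arrays that is not a member, was -1.04 and -0.71 in lovastatin mice and -0.11 and -0.47 in fenofibrate mice. In HFC mice Mt4 was 0.33 in replicate 1, with -0.26 in replicate 2 after the spot was put back. Mtf1, the zinc sensor itself, had a log2 ratio of 0.40 and 0.37 in lovastatin mice, 0.32 and 0.37 in fenofibrate mice, and -0.16 and 0.42 in HFC mice. Mtf1 was above the pool on 5 of 6 arrays, and the drug pairs lay between the 2 HFC values.

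Among the importers, Slc39a5 set the fenofibrate mice apart. Slc39a5 encodes ZIP5, which is known to sit on the basolateral face of intestinal and pancreatic acinar cells and is also made in liver. Its log2 ratio was 0.12 and 0.11 in lovastatin mice, 2.22 and 1.75 in fenofibrate mice, and 0.06 in HFC replicate 1, with 0.54 in HFC replicate 2 after the spot was put back. Both fenofibrate arrays were above every other array. Slc39a5 averaged 1.99 ± 0.33 in fenofibrate mice (SD, n = 2), or 3.96 times the pool, and it ranked 17 and 144 from the highest on those arrays. The difference from HFC mice was 1.93 (SE 0.37) with fenofibrate and 0.06 with lovastatin, where the interval ran between -0.94 and 1.05. These rest on 1 HFC array. With the displaced spot put back the fenofibrate difference was 1.69, and with the value as deposited it was 2.04.

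Slc39a5 is abundant in pancreas, so markers of pancreatic acinar cells were read on the same arrays. Of 11 markers 9 were measured, and their median log2 ratio was -0.08 and -0.15 on the fenofibrate arrays, 0.24 and 0.01 on the lovastatin arrays, and 0.06 and -0.06 on the HFC arrays. The acinar marker with the smallest p, Cela2a, an elastase, was at -0.96 over all HFC-fed mice (limma adjusted p = 0.132). The median of the 6 measured enterocyte markers was 0.03 and -0.13 on the fenofibrate arrays. Ratios give no level, so whether hepatocyte markers are abundant cannot be read from these values. Of 8 hepatocyte markers 6 were measured, by 9 probes, and 0 passed in limma over all HFC-fed mice. Ttr, the carrier transthyretin, was at -0.98 (limma adjusted p = 0.0916), Alb, albumin, at -0.73 (limma adjusted p = 0.267), Apoa1, the main HDL protein, at -0.66 (limma adjusted p = 0.279) and Cps1, a urea cycle enzyme, at -0.41 (limma adjusted p = 0.379). Hnf4a, a hepatocyte transcription factor, was at -0.11, and the 4 probes of Apob, the main LDL protein, lay between 0.09 and 0.28. The median of the 7 Kupffer cell markers, macrophages of the liver, was 0.22 and 0.07 on the lovastatin arrays, -0.29 and -0.33 on the fenofibrate arrays, and -0.19 and -0.09 on the HFC arrays. The part of other cell types in the member ratios was not tested.

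Slc39a4 encodes ZIP4, the intestinal zinc importer mutated in the human disease acrodermatitis enteropathica. Its log2 ratio was -0.28 and -0.02 in lovastatin mice, 0.59 and 0.33 in fenofibrate mice, and -0.36 in HFC replicate 1, with -0.14 in HFC replicate 2 after the spot was put back. Only the fenofibrate arrays were above the pool. Slc39a14 encodes ZIP14, which carries zinc, iron and manganese into hepatocytes. Its probe 2 had a log2 ratio of 0.21 and 0.13 in lovastatin mice, 0.16 and -0.02 in fenofibrate mice, and 0.18 and 0.07 in HFC mice. Probe 1 of Slc39a14 was below the pool on every array, between -0.37 and -0.06 with the displaced spot put back, while probe 2 was above the pool on 5 of 6 arrays, so the 2 probes differ in sign on all arrays but fenofibrate replicate 2.

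The exporter probes lay between -0.24 and 0.77 on the arrays used. Slc30a1 encodes ZnT1, the plasma membrane exporter that MTF1 also controls. Its probe 2 had a log2 ratio of 0.66 and 0.37 in lovastatin mice, 0.35 and 0.77 in fenofibrate mice, and 0.21 and 0.44 in HFC mice. All 6 values were above the pool and the groups overlapped, while Mt1 was below the pool on all 4 drug arrays. Slc30a1 probe 1 was 0.23 and 0.49 in lovastatin mice, -0.12 and 0.26 in fenofibrate mice, and 0.21 in HFC replicate 1, with 0.98 in HFC replicate 2 after the spot was put back. Slc30a10 encodes ZnT10, which is known as a manganese exporter. Its log2 ratio was -0.24 and 0.45 in lovastatin mice, -0.08 and 0.12 in fenofibrate mice, and 0.46 in HFC replicate 1, with 0.54 in HFC replicate 2 after the spot was put back. Both HFC values were above all 4 drug arrays, the nearest being the 0.45 of lovastatin replicate 2.

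In the main fit no member probe passed an adjusted p of 0.05 in limma in any of 6 comparisons. With lovastatin against the pool 0 of 20847 probes passed (0%), with fenofibrate 0 of 20814 (0%) and with HFC 0 of 20846 (0%), against 2161, 1571 and 959 probes with an unadjusted p under 0.05. Lovastatin against HFC and fenofibrate against HFC also gave 0 of 20846 probes each (0%), with 404 and 590 at an unadjusted p under 0.05. All HFC-fed mice against the pool, weighted so that both dyes count equally, gave 97 of 20789 probes (0.467%), 29 higher and 68 lower. Since the members were chosen on these ratios, nothing is read from their count. The arrays of lovastatin and HFC mice did not overlap for 2 of the 6 member probes with 4 usable values, against 31.1% of all probes. For fenofibrate and HFC mice they did not overlap for 3 of 6, against 39.8%. For fenofibrate and lovastatin mice they did not overlap for 4 of 11, against 40.4%. The share of all probes was not counted for orderings over all groups, such as all 4 drug arrays below both HFC arrays.

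**Figure D2:**
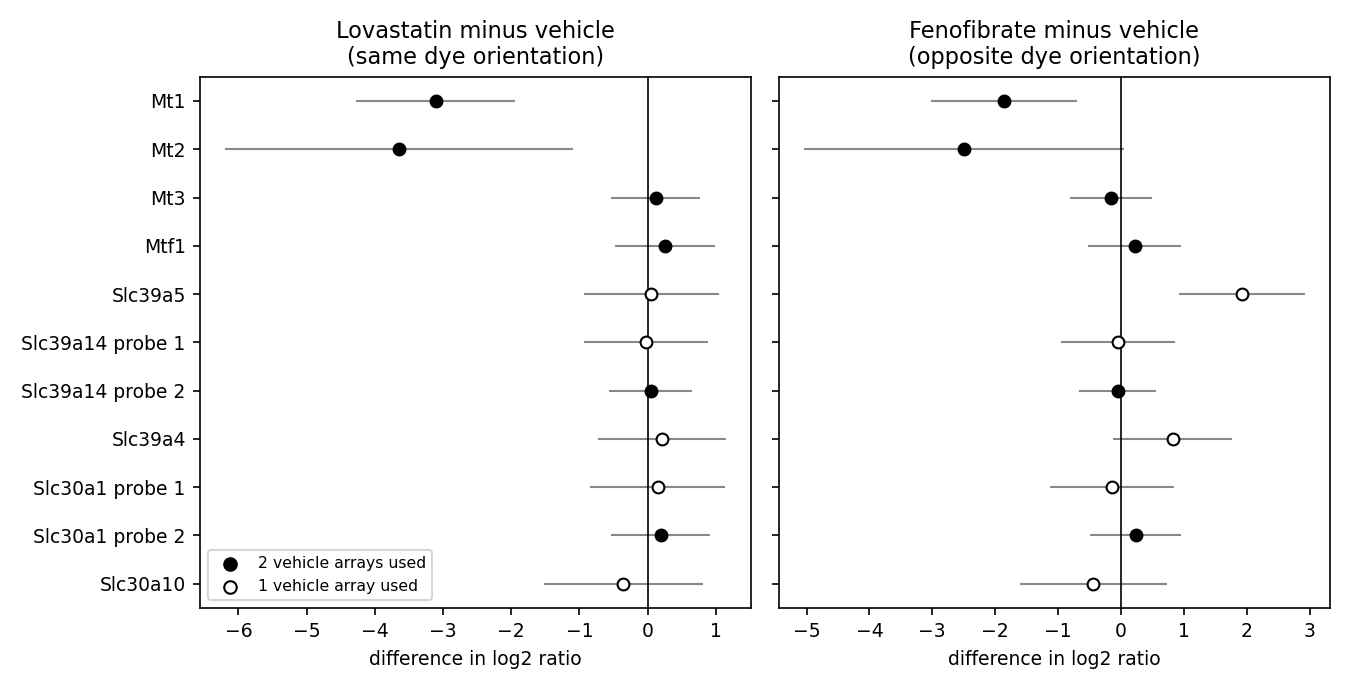
Difference in log2 ratio (horizontal axis) between each drug group and HFC mice for each member probe. Open points mark probes where 1 HFC array was used. Bars are the 95% interval of the limma fit, not adjusted for the number of probes. They are a description and not a test, since the members were chosen on these ratios. Mt1 stands at -3.11 with lovastatin and -1.86 with fenofibrate, and Slc39a5 at 0.06 with lovastatin and 1.93 with fenofibrate.

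The probe most like the mean of Mt1 and Mt2 was that of Igfbp1, which encodes a liver-secreted binding protein of insulin-like growth factors that insulin represses. Likeness was the root mean square difference of log2 ratios over the usable arrays, among 17863 named probes. For probes displaced on HFC replicate 2 that array was left out, so probes were not all ranked on the same arrays. Igfbp1 is such a probe, and its rank leaves out the array where the metallothionein mean was 1.32. The Igfbp1 log2 ratio was -2.67 and -4.05 in lovastatin mice, -1.95 and -2.92 in fenofibrate mice, and -0.92 in HFC replicate 1. The mean of Mt1 and Mt2 was -2.42 and -3.56 in lovastatin mice, -1.51 and -2.08 in fenofibrate mice, and -0.55 in HFC replicate 1. The difference was 0.52 and Pearson's r was 0.981 over these 5 arrays, which share the pool. On HFC replicate 2 they parted, with Igfbp1 at -2.09 after its displaced spot was put back and the metallothionein mean at 1.32. The next probes were Ppp1r3g, a glycogen-targeting phosphatase subunit, at a difference of 0.777 (r = 0.95), Zfand4 at 0.949 (r = 0.44), Slc22a7 at 0.989 (r = 0.265), Pgr, the progesterone receptor, at 0.989 (r = 0.866, with HFC replicate 2 in place of lovastatin replicate 1) and Erg28 at 1 (r = 0.453).

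**Figure D3:**
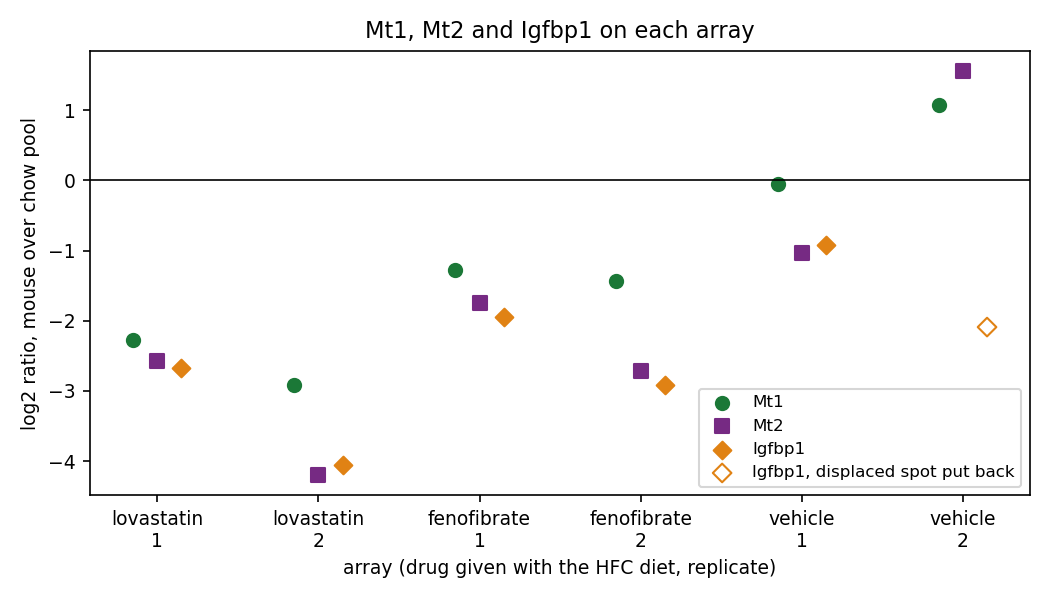
Log2 ratio of mouse over chow pool (vertical axis) for Mt1, Mt2 and Igfbp1 on each of the 6 arrays (horizontal axis), with the displaced Igfbp1 spot of HFC replicate 2 put back as an open point. The 3 genes lie together below the pool on the drug arrays, and on HFC replicate 2 Igfbp1 is at -2.09 while Mt1 and Mt2 are at 1.08 and 1.56.

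The other genes of zinc handling were tested in limma over all HFC-fed mice against the pool, where the median of all probes was 0.01. Of the 9 measured ZIP genes outside the members 0 passed, with a median of 0.19. The smallest p among them was that of Slc39a7, the importer of the endoplasmic reticulum and Golgi, at 0.28 (adjusted p = 0.455). Of the 8 other ZnT genes 0 passed, with a median of 0.23, and Slc30a7, which loads zinc into the secretory pathway, was at 0.33 (adjusted p = 0.596). Of 6 other genes reported as MTF1 targets 1 rose and 0 fell. This was Gclc, the catalytic subunit of the enzyme that starts glutathione synthesis, at 1.40 (SE 0.14, limma adjusted p = 0.0333). Gclc was 1.20 and 1.63 in lovastatin mice, 1.51 and 1.35 in fenofibrate mice, and 1.57 and 1.06 in HFC mice, above the pool on all 6 arrays. Slc40a1, the iron exporter ferroportin, was at 0.72 (limma adjusted p = 0.12).

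Of 14 measured zinc enzymes 1 fell and 0 rose. Bhmt, the zinc-dependent enzyme that remethylates homocysteine, was -1.97 and -2.18 in lovastatin mice, -1.67 and -1.83 in fenofibrate mice, and -1.66 and -2.09 in HFC mice. Over all HFC-fed mice Bhmt was at -1.86 (SE 0.12, limma adjusted p = 0.0147). Alpl, tissue-nonspecific alkaline phosphatase, was at 1.45 (adjusted p = 0.0809) and Car3, a carbonic anhydrase, at -1.31 (adjusted p = 0.098), neither past the threshold in limma. Of the 14 probes of 11 copper-handling genes 0 passed, and Cp, the plasma copper carrier ceruloplasmin, was at 0.61 (limma adjusted p = 0.142).

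Genes of the signals known to induce metallothionein were read in the same way. Of 13 glucocorticoid-response genes 0 passed in limma and 11 of 13 were below the pool, with a median of -0.34, and Tat, tyrosine aminotransferase, was at -1.05 (adjusted p = 0.11). Of 9 fasting-response genes 1 fell and 0 rose, with a median of -0.56. This was G6pc, glucose-6-phosphatase, at -1.76 (SE 0.20, limma adjusted p = 0.0478). G6pc was -1.34 and -1.32 in lovastatin mice, -2.17 and -2.78 in fenofibrate mice, and -0.19 and -1.34 in HFC mice. Igfbp1, which is on both lists, was at -2.29 (limma adjusted p = 0.0988). Cdkn1a, also a fasting gene, went the other way, at 1.30 (limma adjusted p = 0.0852). Cdkn1a was 0.48 and 1.05 in lovastatin mice, 1.05 and 1.19 in fenofibrate mice, and 2.20 in HFC replicate 1. Set against HFC mice, 9 of 9 fasting genes were lower in lovastatin mice and 8 of 9 in fenofibrate mice, where the dye differs too. Medians were -0.45 and -1.05 beside a median of all probes of -0.02 in both, and 0 passed in limma in either comparison. For Cpt1a, Fgf21, Ppargc1a, Pck1, Cdkn1a and Igfbp1 these counts rest on HFC replicate 1 alone. Fgf21 was 0.54 and 0.11 in lovastatin mice and 0.70 in HFC replicate 1. In HFC replicate 2 Fgf21 was -0.24 after the spot was put back, below both lovastatin values. Of 21 acute phase and IL-6 probes 0 passed and 13 were below the pool, with a median of -0.17. The smallest p-values were those of Apcs, serum amyloid P, at -0.65 (limma adjusted p = 0.107), and Fgg, a fibrinogen chain, at -0.62 (limma adjusted p = 0.142). Socs3, a feedback inhibitor of that signal, was at 1.04 (limma adjusted p = 0.186). Of 9 metal, heat and oxidant stress probes 0 passed and 8 were above the pool, with Gclm, the modifier subunit that pairs with Gclc, at 0.83 (limma adjusted p = 0.0628). Set against HFC mice, 16 of 21 acute phase and IL-6 probes were higher in lovastatin mice (median 0.345) and 5 of 21 in fenofibrate mice (median -0.32). Of the stress probes 7 of 9 were higher with lovastatin (median 0.18) and 3 of 9 with fenofibrate (median -0.14). Of the glucocorticoid-response genes 5 of 13 were higher with lovastatin (median -0.24) and 3 of 13 with fenofibrate (median -0.36). In each of these 0 passed in limma. The part of these signals in the metallothionein ratios was not tested.

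**Figure D4:**
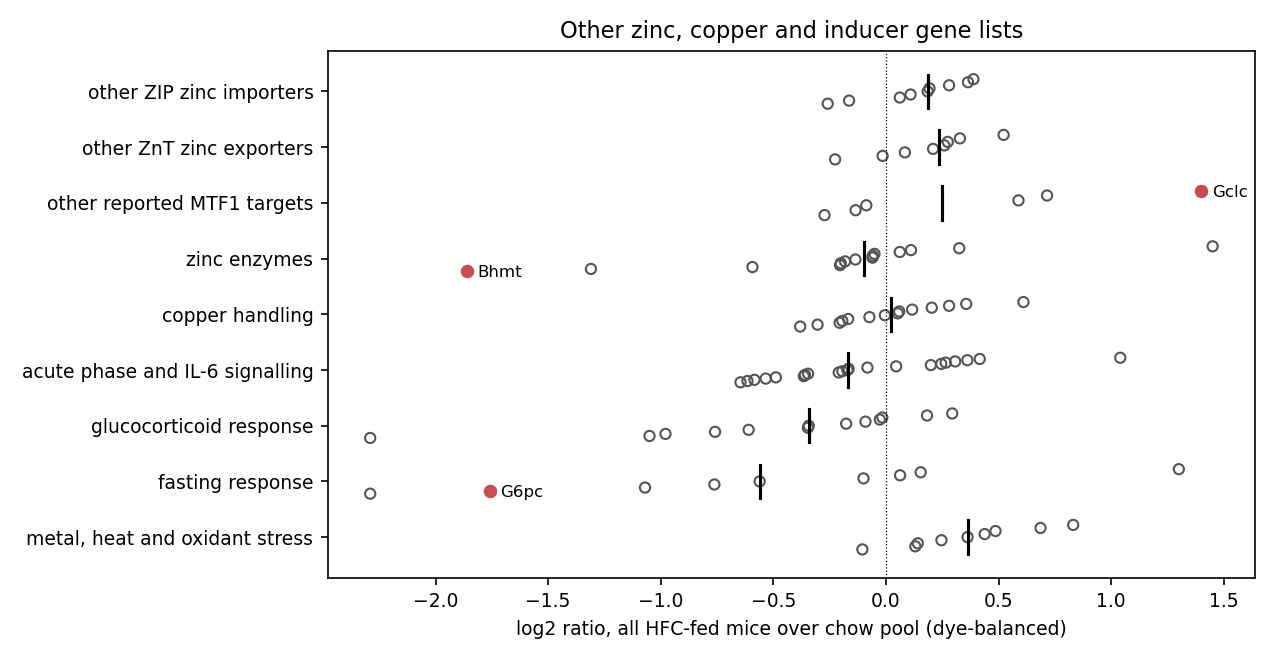
Log2 ratio of all HFC-fed mice over the chow pool, weighted for equal dyes (horizontal axis), for each probe of the other zinc, copper and inducer gene lists (rows). Gclc at 1.40, Bhmt at -1.86 and G6pc at -1.76 passed the threshold in limma.

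The calls of Gclc, Bhmt and G6pc held without either lovastatin array and were lost without any 1 of the fenofibrate or HFC arrays. Without fenofibrate replicate 1 their limma adjusted p-values were 0.509, 0.375 and 0.494, and without fenofibrate replicate 2 they were 0.617, 0.436 and 0.745. Without HFC replicate 1 the limma values were 0.123, 0.0662 and 0.0877, and without HFC replicate 2 they were 0.0982, 0.0642 and 0.0982.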

How the data were processed

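The authors deposited 1 value per spot and array, read here as a log2 ratio of mouse over pool. The base is not stated. Base 2 is the convention, base 10 could not give the control spot's -9.71 from a 16-bit scanner (its limit is 4.82), and base e is possible. How the arrays were scanned, background-corrected and normalized is not given in the sources consulted, and without intensities dim probes were not filtered. The number of arrays limits precision. The table has 22575 spots. Of these 726 had no value, 561 repeated unnamed control spots were left out and 423 repeated named spots were merged, leaving 20865 probes. By platform annotation 18235 probes have 1 gene symbol, 30 have several and 2600 have none, and 0 symbols were updated.

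Displaced blocks were found by correlating each block of HFC replicate 2 with the other arrays. In place the 4 blocks had r between -0.0344 and 0.0278, and rotated along the row between 0.237 and 0.256. Of 40 blocks on the other arrays 0 were displaced.

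Group means over all 6 arrays were fitted per probe in R 4.3.3 with limma 3.58.1 (statmod 1.5.0 also loaded), with p-values adjusted by Benjamini-Hochberg over all probes at 0.05. Tests against the pool leave out the spread between chow mice. In the comparison of all HFC-fed mice the fenofibrate mean has a weight of 0.5 and the other group means 0.25. The fit was tested on simulated data. The members and lists were chosen with earlier results of these data known. Genes named are all members, per list those that passed or else up to 4 with the smallest p over all HFC-fed mice, and the 6 probes most like the Mt1 and Mt2 mean. Named besides these were Mt4, Hnf4a, Apob, Cdkn1a, the fasting genes with HFC replicate 1 alone, and the probes most like Slc39a5. Alternatives were the displaced values as deposited or put back, averaging of probes, centring, quantile and spread scaling, array weights, a robust prior, a replicate block, leaving out each array, and turning the fenofibrate sign. Promoters come from RefSeq. Python 3.11.15, pandas 2.3.3, numpy 2.4.6 and matplotlib 3.10.9 were used. The design describes 24 mice in 4 arms, and the others were not analysed here.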

Additional observations from a re-analysis of the deposited data

Results flagged for a closer look

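Slc39a4 had opposite signs under the drugs on every array. Its log2 ratio was 0.59 and 0.33 in fenofibrate mice and -0.28 and -0.02 in lovastatin mice, a difference of 0.61 between the group means. The value of -0.02 in lovastatin replicate 2 is 0.986 times the pool, so its sign says little. The share of all probes with such opposite signs was not counted. The arrays of fenofibrate and lovastatin mice did not overlap for 40.4% of all probes. The Slc39a4 difference was not tested. The drug groups carry the mouse in opposite dyes, so drug and dye cannot be told apart here.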

How the results depend on the processing

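With 2 arrays a group, the count of probes called moved with the processing. A member value counted as moved when it shifted by at least the probe's SD in the main fit. Most did not, except with the fenofibrate sign turned, where 22 of 33 moved. Without HFC replicate 1 6 values moved and 40 did not, and without HFC replicate 2 6 moved and 60 did not. In both cases these were Mt1 and Mt2, in each drug against HFC and in HFC against the pool. With displaced spots put back 3 moved, and after quantile normalization 1. Over all HFC-fed mice 97 probes passed, against 53 with the values as deposited, 183 with displaced spots put back, 185 after quantile normalization, 2 with arrays scaled to one spread, 205 with array weights and 0 with the fenofibrate sign turned. Leaving out 1 array gave 0 to 772, the highest without lovastatin replicate 2, and assumes that the lone array left varies like the other groups. With the replicate block 0 passed, but deviations of same-numbered arrays correlated at -0.0217, 0.00657 and 0.0405, so the numbers do not pair the samples. HFC against the pool gave 2 with spots put back and 8 after quantile normalization. Lovastatin against the pool gave 2 and 3 under the same settings and 0 to 4003 with 1 array left out. Fenofibrate against the pool gave 30 and 8, 111 with array weights and 0 to 19 with 1 array left out. Lovastatin against HFC gave 0 to 1153 with 1 array left out, the highest without lovastatin replicate 2, and fenofibrate against HFC gave 33 with the fenofibrate sign turned.

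With arrays scaled to one spread the limma adjusted p was 0.0807 for Gclc, 0.0558 for Bhmt and 0.0547 for G6pc. After quantile normalization it was 0.0633 for Gclc, and for G6pc it was 0.0515 with values as deposited and 0.0547 with a robust prior. With the fenofibrate sign turned it was at least 0.903 for all of them. Among members, in fits that keep every array, Slc39a5 passed over all HFC-fed mice with displaced spots put back. Array weights were equal within each pair, at 1.27 for HFC, 0.503 for lovastatin and 1.57 for fenofibrate, so they weighed groups and not single arrays. With these weights Slc39a5 passed in fenofibrate against the pool. Nothing is read from these calls, since the members were chosen on these ratios. The Mt1 difference lay between -3.67 and -2.54 for lovastatin minus HFC and between -2.43 and -1.30 for fenofibrate minus HFC, over every setting but the turned sign. If the fenofibrate ratios run the other way, that Mt1 difference is 0.83, the Mt2 difference 1.98 and the Slc39a5 difference -2.04. The turned sign would also make the correlations of the fenofibrate arrays with all arrays of the other groups negative, where as read they were all positive.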

Other observations

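By the same measure of likeness, chosen after the values were seen, the probe most like Slc39a5 was that of Vnn1, a pantetheinase known as a PPARα target. Its log2 ratio was 1.96 and 2.31 in fenofibrate mice, 0.09 and 0.16 in lovastatin mice and 0.26 in HFC replicate 1, a root mean square difference of 0.291 over these 5 arrays. On HFC replicate 2 they parted, with Vnn1 at -0.63 and Slc39a5 at 0.54 after its displaced spot was put back. Ephx2, the soluble epoxide hydrolase, followed at 0.41, with 1.62 and 1.56 in fenofibrate mice, 0.77 and 0.24 in lovastatin mice, and -0.02 and -0.06 in HFC mice. Close behind were Sprr1b at 0.439, Ttk at 0.457, Prpsap1 at 0.461 and Cyp4a12a at 0.467. The fenofibrate mice carry the other dye, so drug and dye cannot be told apart for these probes. A shared regulator was not tested.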
